A study of Homo sapiens with 6 samples.

Results

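WNT target and feedback genes are transcribed when β-catenin reaches the nucleus and joins the DNA-binding factors of the TCF/LEF family. In the absence of WNT, a destruction complex built on APC and AXIN marks β-catenin for degradation, and many colorectal cancers, the DLD1 line among them, carry truncated APC and keep this output switched on. Several of the target genes act back on the pathway as brakes, either inside the cell, at the receptor or in the extracellular space, while others mark the stem cells at the base of intestinal crypts. The 10 genes described here were chosen by name, with no rule on measured values, although earlier results of these data were known. They were found as the rows of the deposited gene table whose Ensembl identifier carries the symbol AXIN2, LGR5, ASCL2, NKD1, NOTUM, RNF43, ZNRF3, TCF7, LEF1 or MYC in the GENCODE annotation, and they make up 10 of the 58884 genes in the table. All 10 passed the filter on low counts, which left 16059 genes to test.

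The study sequenced RNA from DLD1, a human colorectal cancer cell line, in 3 libraries of parental cells and 3 libraries of p85β KR-AA cells, in which the changes K477A and R478A were knocked into the nuclear localization signal of p85β, a regulatory subunit of PI3K encoded by PIK3R2. By their labels and the study's methods both groups share the DLD1 background with its PIK3CA helical domain mutation, which these counts do not show, and no treatment, dose or time point separates them. The knock-in was made by gene editing and more than one independent clone was kept. The libraries are numbered without naming a clone, so that it is not known which clone a KR-AA library came from. For KR-AA replicates 2 and 3 the source label gives the second change as R479A and R480A, whereas their titles and genotypes give R478A. Nothing in the labels says that the 3 libraries of a group came from separate cultures, so the p-values measure the spread between libraries, which may be technical.

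The libraries held between 20301396 and 26712816 estimated counts. Values are given as CPM, counts scaled to a common library size after TMM normalization, and 1 count was worth 0.0273 to 0.0728 CPM. The factors of this normalization were 0.677 to 0.777 in parental and 1.35 to 1.41 in KR-AA libraries. A gene was called when edgeR's quasi-likelihood test gave a change of at least 3-fold with an adjusted p under 0.01, and on this rule 28.6% of all tested genes were called higher and 17.6% lower in KR-AA cells. The median log2 fold change of all tested genes was 0.32. The groups differed across the whole transcriptome. Long genes, over 4000 bases, held 9.49% to 12.1% of each parental library and 27.7% to 28.9% of each KR-AA library. Of 16 colon epithelial markers, 15 were over 1 CPM in every parental library and 13 in every KR-AA library, and their summed level was 58345 to 80493 CPM against 9283 to 10832 CPM, most of it KRT8, KRT18 and KRT19. Of the 15 that were tested, 2 were called higher (13.3%), among them CDH1 (97.3 and 344 CPM), and 7 lower (46.7%). Of 16 mesenchymal markers, 4 were over 1 CPM in every parental library and 10 in every KR-AA library, with summed levels of 119 to 138 CPM and 6539 to 7477 CPM that came mainly from FN1 (4.28 and 4992 CPM) and VIM (0.803 and 1772 CPM), while COL1A2, THY1, PDGFRA and SPARC stayed at or near 0 in both groups. Of 12 neural markers, 3 and 7 passed the same level, and 5 of the 8 that were tested were called higher and none lower. NEFL went from no count to 132 CPM and NCAM1 from 0.0633 to 23.4 CPM, while TUBB3, the most abundant, had 561 and 211 CPM, and STMN2, ELAVL4 and DCX were at or near 0. The summed neural level was 543 to 636 CPM in parental and 385 to 411 CPM in KR-AA libraries. The part of these differences in the results on WNT genes was not tested, and the genotype cannot be told apart from anything else that separates the 2 groups, a difference between the cells of origin included. PIK3R2 itself had 22.1 ± 11.5 CPM (SD, n = 3) in parental and 11.6 ± 6.29 CPM in KR-AA libraries, and the groups overlapped (log2 fold change -0.93, SE 0.42, adjusted p = 0.0558). A protein-coding gene on the same strand, ENSG00000268173, overlaps PIK3R2 and took on average 2666 counts in parental and 1583 in KR-AA libraries, several times the counts of PIK3R2, so this level is uncertain.

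The WNT target and feedback genes did not move together. LGR5, a receptor for R-spondins and a crypt stem cell marker, and RNF43, a ligase that removes WNT receptors from the cell surface, rose in KR-AA cells, by 4.13-fold and 3.72-fold. ASCL2, a stem cell transcription factor, and NOTUM, a secreted enzyme that inactivates WNT proteins, fell, with parental levels 12.5 and 4.93 times those of KR-AA cells. The other 6, among them the widely used reporter gene AXIN2, were not called. This made 2 of 10 higher (20%, against 28.6% of all tested genes) and 2 of 10 lower (20%, against 17.6%). The median log2 fold change of the 10 genes was 0.32, the same as that of all tested genes, and their range ran from -3.64 to 2.05. In 5 of the 10 genes every KR-AA library lay above every parental library, where 47% of all tested genes did so, and in 4 every KR-AA library lay below, where 36.5% did so. Without a limit on the fold, at an adjusted p under 0.05, 5 of the 10 genes were higher (45.9% of all tested genes) and 4 lower (35.7%). In RNA from bulk cultures, fewer cells that express a gene and less RNA per cell cannot be told apart.

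**Figure D1:**
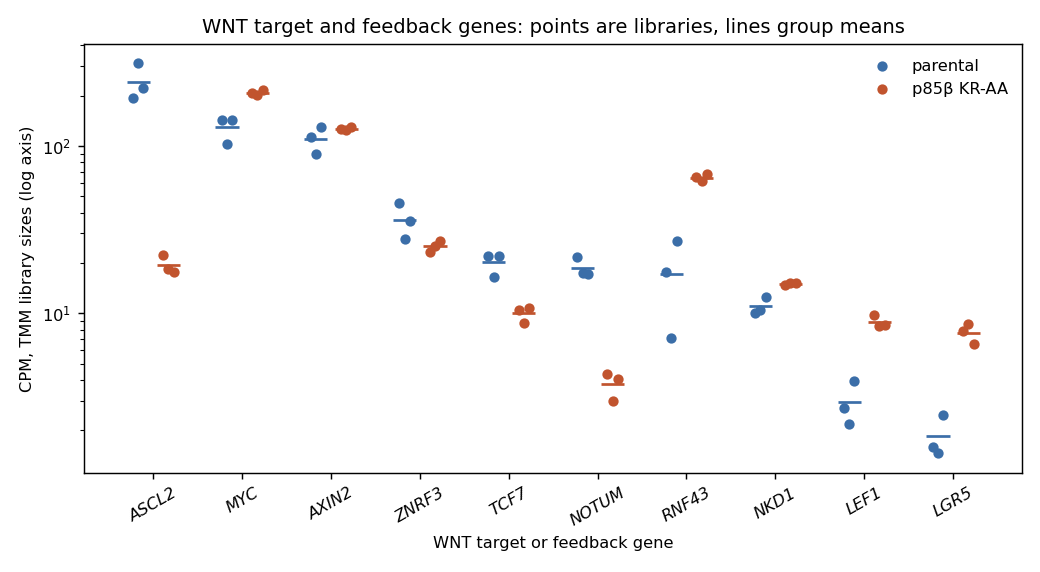
Level of each WNT target and feedback gene in CPM on a log axis, with 1 point per library, a line for the mean of each group, and parental libraries in blue beside p85β KR-AA libraries in orange. ASCL2 stands out with a parental mean of 242 CPM and a KR-AA mean of 19.4 CPM, while the AXIN2 points of the 2 groups overlap.

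AXIN2 (ENSG00000168646, chromosome 17, 63524681 to 63557766 on GRCh37, minus strand) encodes a scaffold of the destruction complex that is itself induced by WNT and so limits its own inducer. Its level was 113, 89.1 and 130 CPM in parental replicates 1, 2 and 3 and 126, 125 and 129 CPM in KR-AA replicates 1, 2 and 3. Parental replicate 3 lay above all KR-AA libraries and parental replicates 1 and 2 below them, so that the groups overlapped. The mean was 111 ± 20.4 CPM (SD, n = 3) against 127 ± 1.69 CPM. The log2 fold change of 0.19 (SE 0.15, adjusted p = 0.231) had a 95% confidence interval from -0.12 to 0.51, inside the 3-fold limit in both directions. This interval does not cover the choice of scaling. With library totals in place of TMM the log2 fold change was 1.11 (SE 0.17, adjusted p = 0.000153), which was not called. Of the 10 genes, AXIN2 was the only one whose groups overlapped.

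NKD1 (ENSG00000140807, chromosome 16, 50582307 to 50683160, plus strand) encodes a protein that binds Dishevelled and dampens the signal downstream of the receptor. It was measured at 10, 10.5 and 12.5 CPM in the parental libraries and at 14.7, 15.1 and 15.1 CPM in the KR-AA libraries. All KR-AA libraries were above all parental ones, by a small margin. The log2 fold change was 0.44 (SE 0.17, adjusted p = 0.0292), which did not reach the call. NKD1 has the longest gene model of the 10, with 17039 bases in the deposited table, and its sign turned when length and GC content were modelled together, as described further on.

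RNF43 and ZNRF3 are paralogous transmembrane ubiquitin ligases that clear Frizzled and LRP receptors from the membrane, and both are WNT targets. RNF43 (ENSG00000108375, chromosome 17, 56431037 to 56494956, minus strand) had 17.7, 7.11 and 27 CPM in the parental libraries and 64.8, 61.4 and 67.8 CPM in the KR-AA libraries. The parental libraries were spread widely, with replicate 2 lowest, yet all of them lay far below the KR-AA libraries. RNF43 rose with a log2 fold change of 1.90 (SE 0.33, adjusted p = 0.000139). Without parental replicate 2 the log2 fold change was 1.51, and RNF43 was no longer called. A protein-coding gene on the same strand, ENSG00000285897, overlaps RNF43 and took on average 242 counts in parental and 490 counts in KR-AA libraries, so the split of reads between these genes is uncertain.

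ZNRF3 (ENSG00000183579, chromosome 22, 29279560 to 29453476, plus strand) had 45.6, 27.7 and 35.4 CPM in the parental libraries and 23.3, 25.1 and 27.1 CPM in the KR-AA libraries. The lowest parental library was barely above the highest KR-AA library. The log2 fold change was -0.53 (SE 0.18, adjusted p = 0.0177), not a call, and opposite in sign to that of RNF43. Of this pair of ligases, ZNRF3 had the higher level per kilobase in parental cells, at 5.29 ± 1.31 CPM per kb against 3.13 ± 1.80 for RNF43 (SD, n = 3) with overlapping libraries, whereas in KR-AA cells RNF43 had 11.7 ± 0.573 CPM per kb and ZNRF3 3.68 ± 0.272, with no overlap.

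LGR5 (ENSG00000139292, chromosome 12, 71833578 to 71980090, plus strand) binds R-spondins, which hold RNF43 and ZNRF3 away from the WNT receptors. It was among the lowest of the 10 genes, with 24, 20 and 40 estimated counts in parental cells and 289, 247 and 179 in KR-AA cells. These corresponded to 1.59, 1.46 and 2.47 CPM and to 7.88, 8.60 and 6.52 CPM. The highest parental library was well below the lowest KR-AA library. LGR5 rose with a log2 fold change of 2.05 (SE 0.26, adjusted p = 8.69e-06), a call that was lost with offsets for length and GC content in the fit (0.25). TSPAN8, on the opposite strand, overlaps LGR5 and took about 1825 and 1800 counts per library in the 2 groups. Whether strand was used in counting is not given in the sources used here, so reads of this pair cannot be separated with certainty.

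NOTUM (ENSG00000185269, chromosome 17, 79910383 to 79919716, minus strand) removes the lipid from secreted WNT proteins, which they need to bind Frizzled. It had 21.8, 17.3 and 17.1 CPM in the parental libraries and 4.31, 2.99 and 4.04 CPM in the KR-AA libraries. The groups were far apart, and no library of either group approached the other. NOTUM fell by 2.30 on the log2 scale (SE 0.21, adjusted p = 4.26e-07). This call was lost with library totals (-1.38) and with offsets for length and GC content (-0.74). Only 8.16% of all tested genes had a lower fold change.

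ASCL2 (ENSG00000183734, chromosome 11, 2289728 to 2291818, minus strand) encodes a basic helix-loop-helix factor that, with WNT, maintains the intestinal stem cell state. Its level was 194, 311 and 222 CPM in the parental libraries and 22.3, 18.3 and 17.6 CPM in the KR-AA libraries. Every parental library was several times higher than every KR-AA library. ASCL2 fell by 3.64 on the log2 scale (SE 0.19, adjusted p = 7.54e-09), and 0.81% of all tested genes had a lower fold change. The stem cell genes LGR5 and ASCL2 thus differed in opposite directions between the same libraries, but with the offsets for length and GC content LGR5 was at 0.25 and not called (adjusted p = 0.276) and ASCL2 at -1.70. No neighbouring gene overlaps ASCL2 in the annotation.

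MYC (ENSG00000136997, chromosome 8) encodes a growth-promoting transcription factor and is a long-known WNT target in colorectal cancer cells. It had 142, 103 and 143 CPM in the parental libraries and 208, 201 and 215 CPM in the KR-AA libraries. All KR-AA libraries were above all parental libraries. The log2 fold change was 0.69 (SE 0.14, adjusted p = 0.000708), a 1.61-fold difference under the 3-fold limit. Of all tested genes, 56.2% had a lower fold change than MYC.

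TCF7 and LEF1 are paralogs that encode TCF/LEF factors, and both are themselves WNT targets, so that they serve the pathway as output and as effectors. TCF7 (ENSG00000081059, chromosome 5, 133450372 to 133487556, plus strand) had 21.9, 16.5 and 22.1 CPM in the parental libraries and 10.4, 8.81 and 10.8 CPM in the KR-AA libraries. LEF1 (ENSG00000138795, chromosome 4, 108968701 to 109090112, minus strand) had 2.72, 2.18 and 3.95 CPM in the parental libraries and 9.82, 8.43 and 8.49 CPM in the KR-AA libraries. With TMM scaling neither gene had overlapping groups, and they differed in opposite directions, with TCF7 lower and LEF1 higher in KR-AA cells. The log2 fold change of TCF7 was -1.01 (SE 0.18, adjusted p = 0.000193), which was not called. With library totals in place of TMM, TCF7 was near 0, at -0.10 (adjusted p = 0.657). The log2 fold change of LEF1 was 1.58 (SE 0.24, adjusted p = 4.94e-05), just short of the 3-fold limit. LEF1 passed the limit without parental replicate 3 (1.82), without KR-AA replicate 2 (1.63) and without KR-AA replicate 3 (1.62). It was called in 8 of 14 alternative fits, also with no filter (1.63) and with at least 10 counts in every library (1.78). In parental cells TCF7 had 6.06 ± 0.949 CPM per kb and LEF1 0.826 ± 0.253, and in KR-AA cells 3.01 ± 0.318 and 2.49 ± 0.220 (SD, n = 3), where the libraries overlapped. SKP1 overlaps TCF7 on the opposite strand and took on average 2184 counts in parental and 4035 in KR-AA libraries.

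RefSeq promoter windows, from 250 bases before to 50 bases after a transcript start, were at hand for 3 of the 10 genes, LEF1, TCF7 and RNF43, in 5 windows on GRCh38.p14. They were searched on both strands for the TCF/LEF core in the spellings ATCAAAG and TTCAAAG, which differ in their first letter. None of the 5 windows held either spelling, where 6.86% of all 35116 windows did. Among the other WNT target genes 4 of 27 windows (14.8%) held one, and SP5, a zinc finger gene used as a WNT reporter, held 3 in a row. With TMM scaling LEF1 and TCF7 differed in opposite directions. The first 2 sequences below show a start region of each of these paralogs, with CpG sites in capitals. They lie at chr4:108166252-108166551 (minus strand) for LEF1 and chr5:134115363-134115662 (plus strand) for TCF7. For TCF7 the window with the lowest coordinate was taken. The third shows the stretch of the SP5 window at chr2:170715159-170715289 (plus strand) with its 3 cores in capitals, for comparison. All are written 5′ to 3′ along the gene.
LEF1: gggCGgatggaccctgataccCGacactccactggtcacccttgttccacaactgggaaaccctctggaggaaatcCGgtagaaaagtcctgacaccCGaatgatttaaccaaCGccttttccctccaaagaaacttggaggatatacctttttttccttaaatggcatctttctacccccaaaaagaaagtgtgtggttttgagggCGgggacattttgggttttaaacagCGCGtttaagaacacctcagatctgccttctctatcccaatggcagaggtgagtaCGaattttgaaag
TCF7: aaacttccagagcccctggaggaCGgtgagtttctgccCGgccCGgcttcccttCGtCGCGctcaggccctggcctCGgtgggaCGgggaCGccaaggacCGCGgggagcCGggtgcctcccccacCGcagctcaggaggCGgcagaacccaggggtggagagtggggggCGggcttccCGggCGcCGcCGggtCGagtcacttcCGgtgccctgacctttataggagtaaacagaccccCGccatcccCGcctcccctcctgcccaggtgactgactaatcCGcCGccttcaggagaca
SP5: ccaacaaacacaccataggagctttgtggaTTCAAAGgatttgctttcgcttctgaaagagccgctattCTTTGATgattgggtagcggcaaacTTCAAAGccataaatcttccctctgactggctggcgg
The TCF7 window shown was 69.7% G and C with 25 CpG sites and the LEF1 window 47% with 9. Another TCF7 window, at chr5:134123368-134123667, was 61% with 3 CpG sites, fewer than the LEF1 window. In SP5 the cores began 148, 109 and 84 bases before the start, the middle one on the opposite strand. SP5 fell from 10.3 ± 2.07 to 2.60 ± 0.184 CPM (SD, n = 3) in KR-AA cells, with -1.98 as its log2 fold change (SE 0.22, adjusted p = 2.77e-06). With the offsets for length and GC content SP5 was at -0.29 (adjusted p = 0.151). Listed genes with a core differed in both directions, such as TLE4 (2.85, called) and DKK1 (-1.08, not called). So did LEF1 and TCF7, without the core in these windows, with TMM scaling. Any link between the core and the fold change was not tested. A match or its absence describes these letters in this window only.

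The 10 genes differed in length and base composition, and across all tested genes the fold change varied with both. Spearman's rho of the log2 fold change was 0.453 with gene length (16059 genes) and -0.567 with GC content (15902 genes), a description across genes of the same 6 libraries, which are not independent replicates. ASCL2 and NOTUM, the genes that fell, had the highest GC content of the 10 (69.6% and 65.7%) and, after MYC, the shortest gene models (1852 and 2223 bases). LGR5, with the highest fold change, had the lowest GC content, 43.8%, and the remaining 7 genes lay between 48.8% and 54.9%. Lengths over the 10 genes ran from 1365 bases for MYC to 17039 bases for NKD1, and the median GC content was 52.5% against 48.9% over all tested genes. Whether length or GC content contributed to any single difference was not tested.

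**Figure D2:**
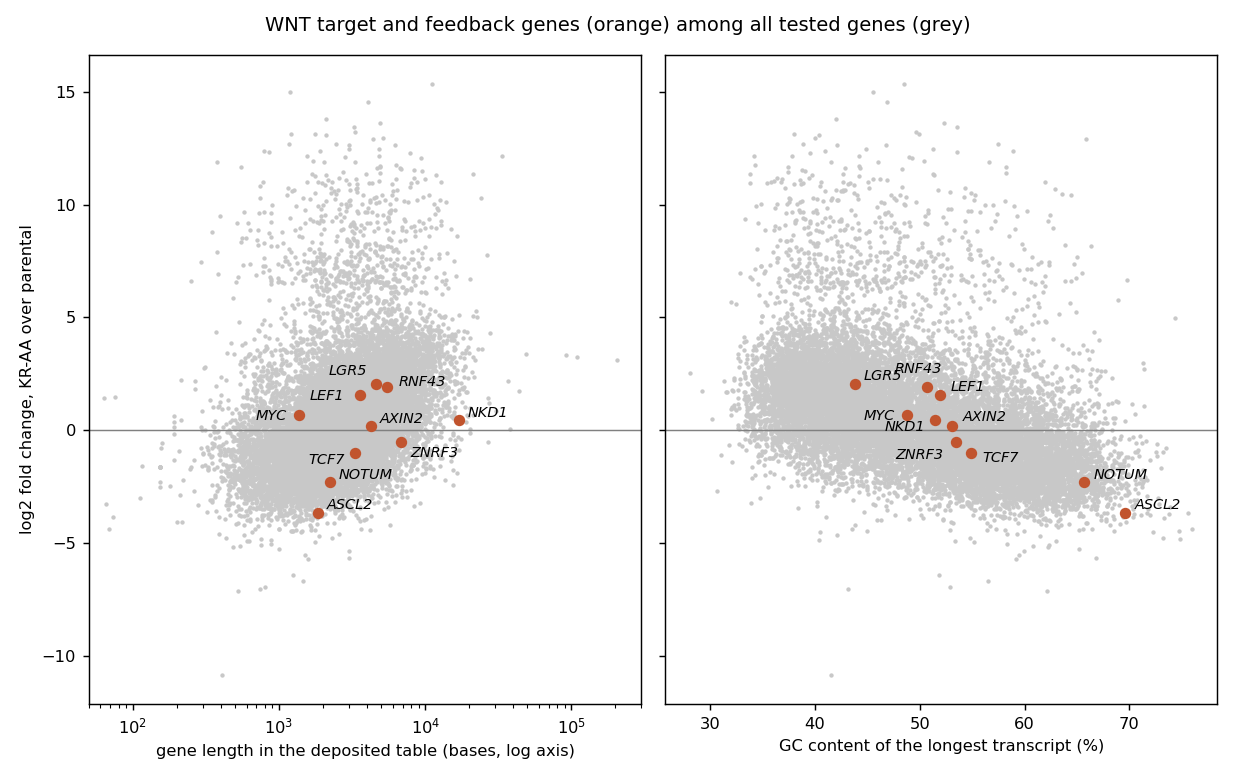
Log2 fold change of KR-AA over parental cells against gene length in bases on a log axis (left) and against GC content in percent (right), for all tested genes in grey and the WNT target and feedback genes in orange. ASCL2 and NOTUM sit at the high end of GC content (69.6% and 65.7%) with the lowest fold changes of the 10.

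Offsets for length and GC content in the fit remove smooth trends of expression with each of these properties, whatever their source. With them 13.1% of all tested genes were called higher and 12.1% lower, and the median log2 fold change was -0.13. Of the 10 genes, ASCL2 alone was still called, with a log2 fold change of -1.70 (adjusted p = 5.93e-07). LGR5 had 0.25 (adjusted p = 0.276), RNF43 0.84 (adjusted p = 0.0103) and NOTUM -0.74 (adjusted p = 0.00116), none of them called. LEF1 had 1.3 (adjusted p = 7.58e-05) and MYC 0.89 (adjusted p = 9.11e-05), which made LEF1 the gene with the highest value of the 10 in this fit. ZNRF3 had -1.48 and TCF7 -0.81. The sign turned for NKD1, to -1.56 (adjusted p = 1.44e-05), and for AXIN2, to -0.17 (adjusted p = 0.111).

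Scaling by library totals in place of TMM raised the median of all tested genes by 0.92 and called 43.9% of genes higher and 6.06% lower. In that fit LGR5 (2.96), RNF43 (2.79), LEF1 (2.50) and MYC (1.60) were called higher and ASCL2 (-2.70) lower. NOTUM was at -1.38 and AXIN2 at 1.11 (adjusted p = 0.000153), neither of them called, and ZNRF3 turned to 0.39. TCF7 was at -0.10 (adjusted p = 0.657). Relative to the median of all tested genes, none of the 10 genes moved by more than 0.03. A change of scaling shifts every gene by nearly the same amount, so this comparison could not have come out otherwise. With either scaling 5 of the 10 genes were above that median and 5 below. Those above were LGR5, RNF43, LEF1, MYC and NKD1, and those below AXIN2, ZNRF3, TCF7, NOTUM and ASCL2. With the offsets, where a gene moved by up to 2.39 relative to the median, 4 were above and 6 below. The split was 3 above and 7 below without a filter, and 6 and 4 with at least 10 counts in every library. ASCL2 was the gene called lower in all 3 fits, and AXIN2, NKD1, ZNRF3 and TCF7 were called in none.

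**Figure D3:**
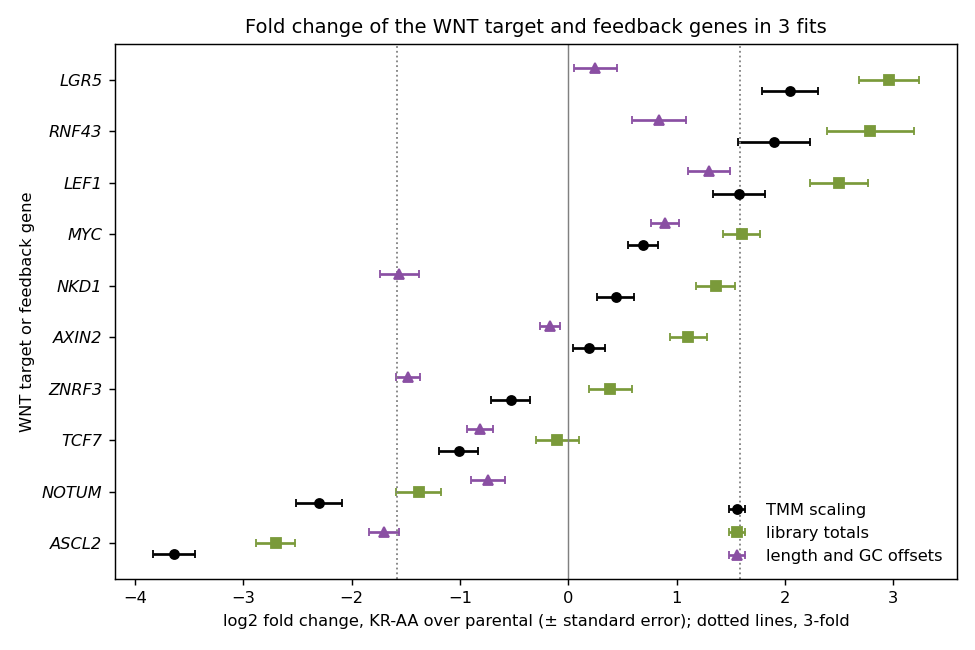
Log2 fold change of KR-AA over parental cells with its standard error for each gene in 3 fits, TMM scaling (black circles), library totals (green squares) and length and GC offsets (purple triangles), with dotted lines at 3-fold. ASCL2 is the one gene beyond the dotted line on the same side in every fit, and NKD1, at 0.44 with TMM and -1.56 with offsets, spans 0.

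Per kilobase of gene length, ASCL2 was the most abundant of the 10 genes in parental cells, with 131 ± 33.2 CPM per kb (SD, n = 3), followed by MYC with 94.7 ± 16.6, AXIN2 with 26.0 ± 4.78 and NOTUM with 8.42 ± 1.20. The libraries of ASCL2 and MYC overlapped, as did those of TCF7 and ZNRF3, of ZNRF3 and RNF43 and of LEF1 and NKD1, and these neighbours in the order cannot be separated. LGR5 was the lowest, with 0.401 ± 0.120 CPM per kb. In KR-AA cells MYC came first with 152 ± 5.28 CPM per kb, then AXIN2 with 29.7 ± 0.396, RNF43 with 11.7 ± 0.573 and ASCL2 with 10.5 ± 1.36, the last 2 overlapping. NKD1 was the lowest there, with 0.877 ± 0.0142, and TCF7 overlapped with LEF1 and NOTUM with LGR5. The order of MYC and AXIN2 was thus kept, ASCL2 went from rank 1 to rank 4 and RNF43 from rank 7 to rank 3. These ranks are not corrected for the relation of fold change with length and GC content, whose part in them was not tested. With the offsets RNF43 was at 0.84 and not called.

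The parental libraries varied more than the KR-AA libraries. The coefficient of variation over the 3 parental libraries was 12.1% for NKD1 to 57.6% for RNF43, and over the 3 KR-AA libraries 1.33% for AXIN2 to 18.4% for NOTUM. NOTUM was the 1 gene of the 10 with more relative spread among KR-AA libraries. Parental replicate 2 was the lowest of its group in 7 of the 10 genes and parental replicate 3 the highest in 7. ASCL2 went the other way, with its highest parental value in replicate 2. KR-AA replicate 2 was the lowest of its group in 6 genes and KR-AA replicate 3 the highest in 5. Deviations of the 10 genes within a group may thus not be independent, which was not tested or compared with all tested genes.

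Other WNT target genes also differed in both directions. Of 24 listed, 20 were tested, 4 were called higher (20%, against 28.6% of all tested genes) and 4 lower (20%, against 17.6%), and their median log2 fold change was 0.00. SOX9, a crypt transcription factor, rose from 50.9 ± 17.2 to 219 ± 9.28 CPM (log2 fold change 2.1), and TNFRSF19, a receptor of the tumor necrosis factor family, from 3.45 ± 0.393 to 49.5 ± 6.13 CPM (3.84). BAMBI, a decoy receptor for TGF-β and BMP, fell from 54.9 ± 2.72 to 11.4 ± 0.421 CPM (-2.26), as did EPHB3, a receptor that positions crypt cells, from 45.1 ± 8.59 to 14.4 ± 2.66 CPM (-1.65). NKD2, the paralog of NKD1, fell from 36.7 ± 4.62 to 9.35 ± 0.615 CPM (-1.97, adjusted p = 2.06e-07), where NKD1 was not called. With the offsets TNFRSF19 (3.12) and BAMBI (-1.91) were still called, SOX9 (1.58) was not, and SP5 (-0.29) and NKD2 (-0.28) lay near 0. CCND1, the cell cycle gene cyclin D1, had 307 ± 22.2 and 254 ± 7.29 CPM (-0.27, adjusted p = 0.0493), and BMP4 373 ± 57.7 and 216 ± 7.71 CPM (-0.78, adjusted p = 0.000166), and neither was called.

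**Figure D4:**
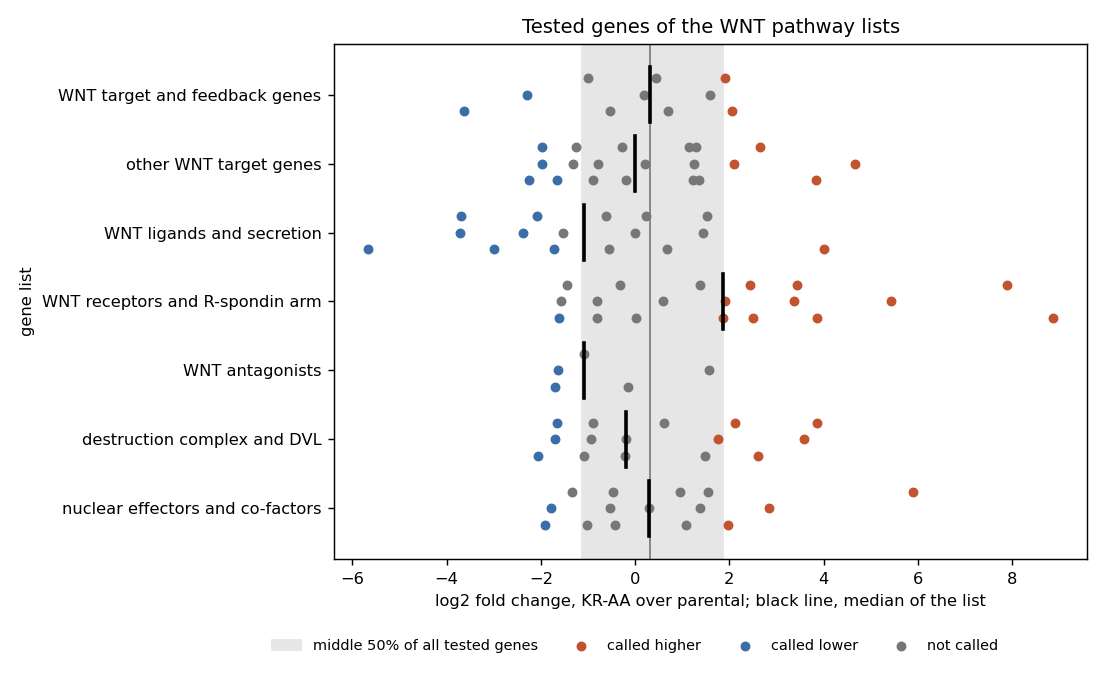
Log2 fold change of KR-AA over parental cells for every tested gene of 7 WNT gene lists, with 1 point per gene, coloured by call, a black line at the median of each list and a grey band for the middle 50% of all tested genes around their median of 0.32. The median of the 10 WNT target and feedback genes lies at 0.32, the ligands lie at -1.07 and the receptors and R-spondin arm at 1.86.

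On the receptor side, where RNF43, ZNRF3 and LGR5 act, more genes were called higher than lower. Of 22 listed receptors and R-spondin genes 19 were tested, 10 were called higher (52.6%, against 28.6% of all tested genes) and 1 lower (5.26%, against 17.6%), and the median was 1.86, against 0.32. Like the other lists, this one was put together with earlier results of these data known. LGR4, which like LGR5 binds R-spondins, rose from 0.771 ± 0.344 to 32.8 ± 7.38 CPM (SD, n = 3), with 5.42 as its log2 fold change (adjusted p = 8.78e-09), and its level per kilobase went from 0.147 ± 0.0655 CPM per kb, against 0.401 ± 0.120 for LGR5, to 6.25 ± 1.41, against 1.67 ± 0.230. The co-receptor LRP6 rose from 4.85 ± 0.728 to 26.5 ± 4.47 CPM (2.44), while its paralog LRP5 had 194 ± 50.6 and 112 ± 8.02 CPM (-0.80, not called). The Frizzled genes FZD8 (3.44), FZD4 (3.36) and FZD5 (1.91) rose as well, and ROR2, a receptor for noncanonical WNT proteins, fell (-1.62). PTK7, another such receptor, had 318 ± 66.3 and 107 ± 9.87 CPM (-1.57) and was not called. The R-spondin genes RSPO2 and RSPO3, named after their values were seen, had no count in any parental library, and set against 3 counts per library their KR-AA levels were at least 5.94-fold and 11.6-fold higher. With the offsets 4 genes of the list were called higher and none lower, where 13.1% and 12.1% of all tested genes were, and the median was 0.21, with LGR4 at 3.26, FZD8 at 4.25 and LRP6 at -0.56.

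Among the ligands more genes were called lower than higher. Of 21 listed WNT and secretion genes 16 were tested, 1 was called higher (6.25%, against 28.6% of all tested genes) and 7 lower (43.8%, against 17.6%), and the median was -1.07, against 0.32. WNT3A, a canonical ligand, fell from 14 ± 1.07 to 0.272 ± 0.0481 CPM (log2 fold change -5.66, adjusted p = 3.63e-09), and WNT10A (-3.69), WNT5B (-2.99), WNT7B (-2.08) and WNT11 (-1.73) fell too. WNT5A, which mostly signals without β-catenin, rose from 0.597 ± 0.240 to 9.73 ± 1.93 CPM (4.01). WLS, the carrier that brings WNT proteins to the cell surface, had 60.2 ± 3.69 and 59.8 ± 4.60 CPM (-0.01, adjusted p = 0.94), and WNT16 7.42 ± 1.97 and 21.3 ± 3.61 CPM (1.52), and neither was called. With the offsets 5 ligands were called lower, WNT3A (-4.36) among them, and WNT5A (1.68) higher, where 12.1% and 13.1% of all tested genes were.

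**Figure D5:**
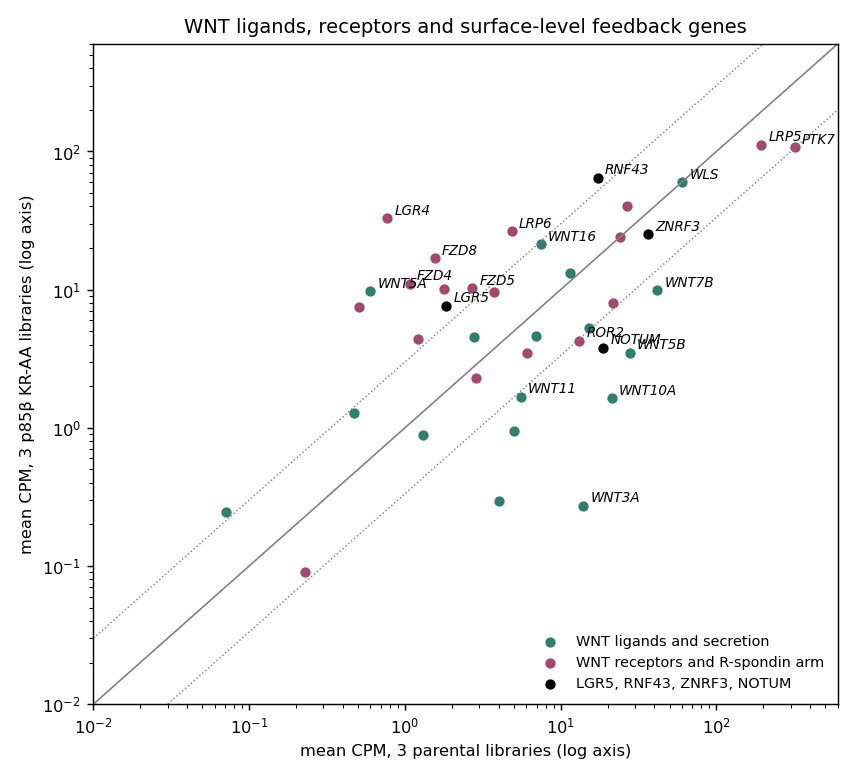
Mean CPM in the 3 p85β KR-AA libraries against mean CPM in the 3 parental libraries, both on log axes, for WNT ligands and secretion genes (green), receptors and the R-spondin arm (purple) and LGR5, RNF43, ZNRF3 and NOTUM (black), with genes at 0 in either group left out, a solid line for equal levels and dotted lines at 3-fold. LGR4 (0.771 and 32.8 CPM) lies far above and WNT3A (14 and 0.272 CPM) far below the solid line.

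WNT antagonists, a list of secreted inhibitors and of the membrane proteins KREMEN1, KREMEN2 and TPBG, were mostly at or near 0. Of 15 listed genes 5 were tested, and 8 had at most 3 counts in every library. None was called higher, against 28.6% of all tested genes, and 2 were called lower (40%, against 17.6%), KREMEN2 from 46.2 ± 2.55 to 14.2 ± 1.79 CPM (log2 fold change -1.70) and DKK3 from 1.52 ± 0.578 to 0.483 ± 0.0784 CPM (-1.63), and the median was -1.08. DKK1, which blocks LRP6 and is a WNT target, had 37.6 ± 4.43 and 17.7 ± 1.34 CPM (-1.08, adjusted p = 2.95e-05, not called), and KREMEN1 83.4 ± 27.3 and 74.8 ± 4.74 CPM (-0.16). With the offsets DKK3 and DKK1 were called lower and KREMEN2 was at 0.11.

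AXIN2 acts in the destruction complex, and the list for it also holds β-catenin, the Dishevelled (DVL) genes and the tankyrases. All 15 of its 15 genes were tested. Of these, 5 were called higher (33.3%, against 28.6% of all tested genes) and 3 lower (20%, against 17.6%), and the median was -0.20. GSK3A fell (log2 fold change -2.07) and its paralog GSK3B rose (1.75). The tankyrases TNKS (2.61) and TNKS2 (3.58), which promote degradation of AXIN proteins, rose, and DVL1 (-1.71) and APC2 (-1.66) fell. CTNNB1, the gene for β-catenin, had 141 ± 30.9 and 216 ± 18.3 CPM (0.62, adjusted p = 0.0035) and CSNK1D 328 ± 26.1 and 178 ± 13.9 CPM (-0.89), and neither was called. Among 15 nuclear effectors and co-factors, which work with TCF7 and LEF1, 3 were called higher (20%) and 2 lower (13.3%), against the same 28.6% and 17.6%, and the median was 0.30. BCL9 (1.97), TLE4 (2.85) and PYGO1 (5.89) rose and TLE5 (-1.92) and TLE2 (-1.78) fell, while CTBP1 (-1.03) and BCL9L (0.30) were not called. With the offsets no gene of the destruction complex list was called higher and 2 were called lower. Of the nuclear factors 2, TLE4 and PYGO1, were called higher and none lower.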

How the data were processed

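RNA-seq of 3 DLD1 parental and 3 p85β KR-AA libraries was analysed. The table deposited by the authors gives an estimated count for each of 58884 Ensembl genes and library, without normalization, and a length per gene. No per-sample column was left out. The submitters' processing notes name HISAT2 2.1.0, RSEM 1.3.1, DESeq2 1.24.0 and hg18, with no role given, and the study's methods state the thresholds used here, a fold of 3 and an adjusted p of 0.01. The design assumed whole counts, so the estimated counts were rounded. Genes were filtered (filterByExpr, minimum count 10, minimum total 15), scaled by TMM and tested with edgeR 4.0.16 in R 4.3.3 (quasi-likelihood F test, Benjamini-Hochberg adjustment over all 16059 tested genes, no covariate). Standard errors come from the fold change and F statistic, and intervals and floors of 3 counts cover counting error or library spread only. The fit was tested on simulated counts in which few genes changed, evenly in both directions. A trend with length was added in 1 simulation and a trend with GC content in none. This test therefore does not cover differences as broad as those between these groups. Symbols, GC content and positions are those of GENCODE 44 on GRCh37 by lift-over, of which 56745 matched an identifier in the table. Since the notes name another build, positions are the annotation's. Offsets for length and GC content were fitted per library with robust splines (5 degrees of freedom, MASS) over 15902 genes.

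The genes and lists were chosen with earlier results of these data known. All 10 members are named, and of each other list every called gene up to 6, otherwise the 6 with the highest mean CPM, and up to 2 genes not called. APC, RSPO2 and RSPO3 are named in addition. Alternatives were DESeq2 1.42.0, library totals, no filter, a floor of 10 counts in each library, a block for the replicate number, leaving out single libraries, the offsets and other thresholds. Same-numbered libraries correlated at -0.204, 0.176 and -0.0575 in their deviations, so the numbers were not taken as pairs. Replicates were not copies (chi-square per degree of freedom 4.08 to 35.8). Promoter sequences come from RefSeq on GRCh38.p14. ChIP-seq was not analysed here. A list of blood cell markers is not reported here.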

Additional observations from a re-analysis of the deposited data

How the results depend on the processing

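With each library left out in turn, 4404 to 4783 of all tested genes were called higher in KR-AA cells and 2774 to 2992 lower, and of the WNT target and feedback genes 1 to 3 were called higher and 2 lower. The ranges were 4 to 5 higher and 3 to 4 lower for other targets, 1 to 3 and 7 to 8 for ligands, 9 to 10 and 0 to 2 for receptors, 0 to 1 and 1 to 2 for antagonists, 4 to 5 and 3 for the destruction complex, and 3 to 4 and 2 for nuclear factors. Without parental replicate 2, RNF43 was lost and 3 ligands and 2 receptors were called higher and lower, respectively, while without parental replicate 1 no receptor was called lower. Without parental replicate 3, 2 receptors were called lower, and without KR-AA replicate 3, 2 ligands were called higher. Library totals gave 7052 higher and 973 lower over all genes, 4 and 1 for the WNT target and feedback genes, 9 and 0 for other targets, 4 and 4 for ligands, 0 lower for receptors, 1 and 0 for antagonists, 0 lower for the destruction complex, and 7 and 0 for nuclear factors. The length and GC offsets gave 2087 higher over all genes, 0 and 1 for the WNT target and feedback genes, 1 and 2 for other targets, 4 and 0 for receptors, 0 higher for the destruction complex and 0 lower for nuclear factors. Signs turned for AXIN2 (-0.17) and NKD1 (-1.56) with the offsets and for ZNRF3 (0.39) with library totals. LEF1 was called higher without a filter (1.63) and with at least 10 counts in every library (1.78). At least 10 counts in every library left fewer genes to test and gave 2898 higher over all genes, 2 higher for other targets, 4 lower for ligands, 6 and 0 for receptors, 1 and 0 for antagonists, 1 lower for the destruction complex and 1 lower for nuclear factors. Without a filter 0 receptors and 1 antagonist were called lower and 1 antagonist higher, and by DESeq2, which called 4202 higher and 3094 lower, 2 receptors were lower. The test of the fold against 3 gave 1 WNT target and feedback gene higher (LGR5), 0 receptors and 0 antagonists lower, 3 higher and 1 lower in the destruction complex and 1 nuclear factor lower. An adjusted p under 0.05 with no fold limit gave 7373 and 5738 over all genes, 5 and 4 for the WNT target and feedback genes, 9 and 9 for other targets, 4 higher for ligands, 5 lower for receptors, 1 higher for antagonists, 6 lower for the destruction complex, and 7 and 6 for nuclear factors. A fold of 2 gave 7 other targets, 3 ligands, 1 antagonist and 6 nuclear factors higher and 3 receptors and 4 nuclear factors lower. With the replicate block 4626 genes were called higher and 2827 lower (4618 and 2823 with robust moderation), 1 antagonist was called higher, LEF1 passed the limit at 1.61, and no other call among the WNT target and feedback genes changed. Same-numbered libraries did not each correlate best with one another, and the prior degrees of freedom were infinite with the block and without the filter, so p-values of single genes from those fits are not given. The causes of these shifts were not tested. Of the antagonists 8 of 15 had at most 3 counts in every library, a level at which a difference was not detectable.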
